A study of Mus musculus with 7 samples.

Results

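The transcription factor NRF2 (Nfe2l2), its repressor KEAP1 and 8 antioxidant genes were followed in mouse bone marrow-derived macrophages (BMDMs): Hmox1, Nqo1, Gclm, Gclc, Slc7a11, Txnrd1, Srxn1 and Sod2. The 10 genes were found by their symbols. All 10 were found among the 48440 genes of the lipopolysaccharide (LPS) experiment and among the 55352 genes of the adeno-associated virus (AAV) experiment, and all 10 passed the filter on low values in both.

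In the LPS experiment, WT BMDMs were sequenced without treatment (0 h) or after 2 h or 4 h of LPS at 100 ng/mL, with 1 library per time point. In the AAV experiment, BMDMs were transduced for 48 h with AAV-GFP (genotype WT, n = 2) or with AAV-Shisa3 (genotype Shisa3 overexpression, n = 2). The cells came from C57BL/6 bone marrow grown with M-CSF, and both vectors carried the ubiquitous CAG promoter, so that expression was not restricted to a cell type. AAV-GFP transduced cells were the controls of this experiment. The study used mice of both sexes over a range of ages, and the age and sex behind each sample are not given in the sources used here, nor is whether the 2 samples of a group came from separate mice or cultures. The p-values then measure only the spread between these samples, which may be technical.

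KEAP1 holds NRF2 in the cytoplasm and passes it to a ubiquitin ligase, so that NRF2 protein is degraded in resting cells. When oxidants or electrophiles modify cysteines of KEAP1, NRF2 builds up, enters the nucleus, pairs with a small MAF protein and binds antioxidant response elements (AREs). Much of this control acts on the protein, which RNA-seq does not measure. In macrophages the pathway is known for supplying glutathione, thioredoxin and heme-degrading enzymes during the oxidative burst.

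The LPS libraries held between 7263258 and 32659392 reads, the 2 h library being the shallowest. Of the macrophage marker list, 10 of 10 genes had reads in each LPS library, and the summed macrophage markers lay between 35779 and 39449 TPM (a length-corrected share of all transcripts) in the 4 AAV samples. Most of that sum was Lyz2, at 26378 to 29528 TPM. Of the 10 markers, Cd14 was called higher with AAV-Shisa3 (1.72-fold, limma, adjusted p = 0.0153). Csf1r was 1.24-fold and Fcgr1 0.785-fold, and both missed the threshold (limma, adjusted p = 0.0712 and 0.0694). Shisa3 itself was at 7.88 and 10.85 TPM in AAV-GFP samples and at 12.3 and 17.8 TPM in AAV-Shisa3 samples. The groups were separate, but the difference of 0.63 on the log2(TPM + 1) scale (SE 0.22) did not pass the threshold (limma, adjusted p = 0.138).

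Promoter windows from 250 bases before to 50 bases after the transcription start (RefSeq, GRCm38.p6) were at hand for 8 of the 10 genes, namely Nfe2l2, Keap1, Nqo1, Gclm, Slc7a11, Txnrd1, Srxn1 and Sod2. Hmox1 and Gclc were missing. The ARE core, searched as TGACNNNGC on both strands, was found in 4 of these 8 genes, against 14.0% of all 27025 genes with a window and 17 of 81 other genes of the pathway. The TRE, the site of AP-1, searched as TGANTCA on both strands, was found in 1 of the 8, Srxn1, against 8.97% of all genes. None of the ARE matches printed here holds a TRE match. The Srxn1 TRE printed here is followed by GC. With these bases it departs from the searched ARE core only by G in place of C, so the search did not count it as an ARE. The 4 ARE matches and the Srxn1 TRE match nearest the start are printed because Gclm, Txnrd1 and Srxn1 were the members that passed the test in AAV-Shisa3 transduced BMDMs and Nfe2l2 encodes the factor itself. Each is read 5′ to 3′ on the strand that carries the match, with the motif in capitals. A match describes letters and not bound protein, and no binding was measured.
Gclm ARE, chr3:122245413-122245441, minus strand, 134 bases before the start: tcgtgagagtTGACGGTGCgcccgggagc
Txnrd1 ARE, chr10:82859104-82859132, minus strand, 92 bases before the start of 1 of its 3 windows: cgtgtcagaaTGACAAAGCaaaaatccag
Srxn1 ARE, chr2:152105542-152105570, minus strand, 28 bases after the start: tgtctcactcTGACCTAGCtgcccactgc
Srxn1 TRE, chr2:152105469-152105495, plus strand, 45 bases before the start: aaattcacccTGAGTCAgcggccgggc
Nfe2l2 ARE, chr2:75704885-75704913, minus strand, 240 bases before the start: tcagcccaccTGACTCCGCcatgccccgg

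With AAV-Shisa3, 3 of the 10 genes passed the test against AAV-GFP, and each was higher, beside 2.23% of all 11218 genes called higher and 4.1% lower. These calls were lost without the intensity trend of the test and without either AAV-GFP sample. Gclm, the modifier subunit of the enzyme that starts glutathione synthesis, rose 2.63-fold in mean TPM, Srxn1 rose 1.70-fold and Txnrd1 rose 1.66-fold. Nfe2l2 and Keap1, which encode the factor and its repressor, differed by at most 1.14-fold and did not pass, nor did Gclc and Slc7a11. Sod2, the mitochondrial superoxide dismutase, was the single member whose AAV-Shisa3 samples lay below the AAV-GFP samples.

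The levels in AAV-GFP transduced BMDMs spanned a wide range on the TPM scale, which accounts for transcript length. Sod2 was highest with a mean of 2130 TPM, then Hmox1 with 1650 TPM. Gclm (145 TPM), Txnrd1 (134 TPM) and Nfe2l2 (130 TPM, the 2 samples spanning 125 to 134) followed, and neighbours in this trio overlapped in their sample values. Srxn1 (73.8 TPM) and Keap1 (64.2 TPM) came next. Slc7a11 (9.86 TPM), Gclc (6.75 TPM) and Nqo1 (4.48 TPM) were lowest. In AAV-Shisa3 transduced BMDMs the order was the same except that Hmox1 (2094 TPM) stood above Sod2 (1950 TPM), and these samples of Hmox1 and Sod2 overlapped.

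**Figure D1:**
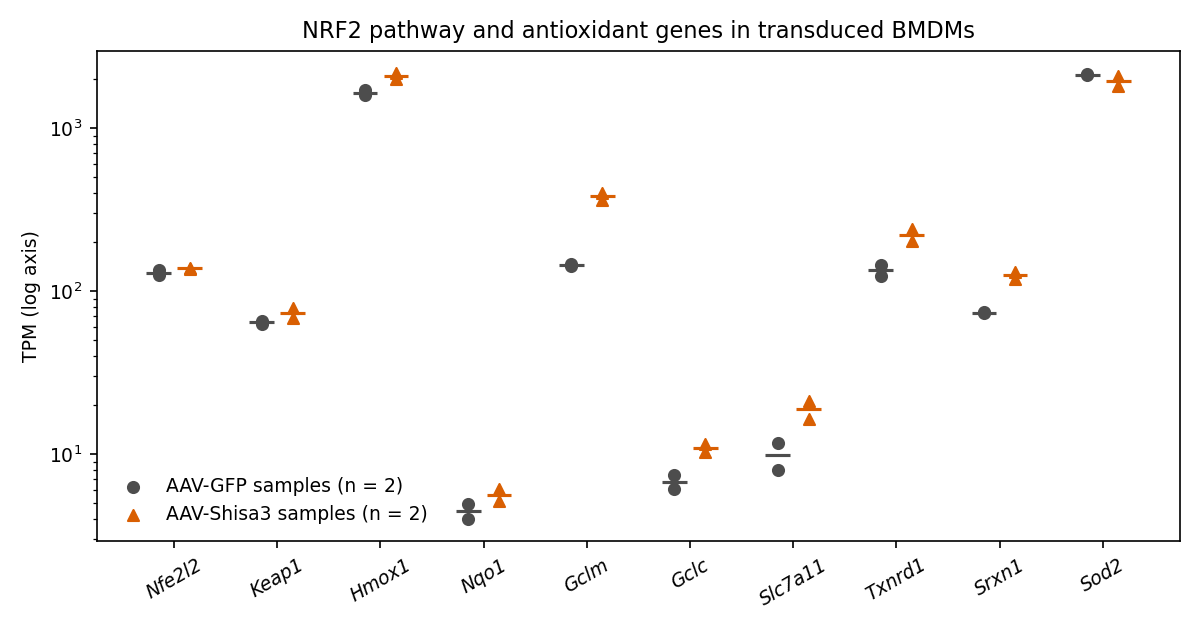
Level of each of the 10 genes in TPM (log axis) in the 2 AAV-GFP samples (grey circles) and the 2 AAV-Shisa3 samples (orange triangles), with horizontal lines at the group means. Gclm has the widest gap, from 142 and 147 TPM to 363 and 398 TPM, while Nfe2l2 stays between 125 and 138 TPM.

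Among the regulators, Nfe2l2 was at 125 and 134 TPM in AAV-GFP samples and at 138 and 137 TPM in AAV-Shisa3 samples. The groups did not overlap, but the log2 difference was 0.09 (SE 0.075) and did not pass (limma, adjusted p = 0.476). Keap1 was at 65.3 and 63.2 TPM with AAV-GFP and at 78.2 and 68.3 TPM with AAV-Shisa3. Its log2 difference of 0.18 (SE 0.095) did not pass either (limma, adjusted p = 0.262).

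Hmox1, heme oxygenase 1, degrades heme to biliverdin, iron and carbon monoxide. It was at 1708 and 1592 TPM in AAV-GFP samples and at 2010 and 2178 TPM in AAV-Shisa3 samples. The log2 difference of 0.34 (SE 0.080) missed the threshold (limma, adjusted p = 0.0636). Nqo1, a quinone reductase that is a common readout of NRF2 in other tissues, was low throughout. It was at 4.02 and 4.94 TPM with AAV-GFP and at 5.15 and 6.09 TPM with AAV-Shisa3, a log2 difference of 0.27 (SE 0.16) that did not pass (limma, adjusted p = 0.320).

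Glutathione is made from cysteine, glutamate and glycine, and its first step needs the catalytic subunit Gclc and the modifier subunit Gclm. Gclm was at 142 and 147 TPM in AAV-GFP samples and at 363 and 398 TPM in AAV-Shisa3 samples. Its log2 difference of 1.39 (SE 0.078) passed the test (limma, adjusted p = 0.00962) and ranked 37 from the highest of 11218 genes. Gclc was at 6.10 and 7.39 TPM with AAV-GFP and at 10.3 and 11.6 TPM with AAV-Shisa3. The mean was 1.62-fold higher, and its log2 difference of 0.63 (SE 0.14) missed the threshold (limma, adjusted p = 0.0600). Slc7a11, the subunit of system xc- that imports cystine in exchange for glutamate, was at 7.99 and 11.7 TPM with AAV-GFP and at 16.5 and 21.3 TPM with AAV-Shisa3. The mean was 1.91-fold higher, but the samples of each group were spread more widely than for Gclm, and the log2 difference of 0.88 (SE 0.21) missed the threshold (limma, adjusted p = 0.0646).

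Txnrd1, the cytosolic thioredoxin reductase, and Srxn1, sulfiredoxin, which restores over-oxidised peroxiredoxins, both passed. Txnrd1 was at 124 and 144.5 TPM in AAV-GFP samples and at 203 and 241 TPM in AAV-Shisa3 samples, a log2 difference of 0.72 (SE 0.12; limma, adjusted p = 0.0315). Srxn1 was at 73.4 and 74.3 TPM with AAV-GFP and at 119 and 131 TPM with AAV-Shisa3. Its log2 difference was 0.75 (SE 0.082; limma, adjusted p = 0.0178). Sod2 went the other way and was at 2121 and 2138 TPM with AAV-GFP and at 1811 and 2088 TPM with AAV-Shisa3. AAV-Shisa3 replicate 2 lay close to the AAV-GFP samples, and the log2 difference of -0.13 (SE 0.089) did not pass (limma, adjusted p = 0.379).

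Thus 3 of the 10 genes were called higher and 0 lower, against 2.23% of all 11218 genes called higher and 4.1% called lower, and without adjustment (p under 0.05) the counts were 6 and 0, against 8.21% and 19.8%. Both AAV-Shisa3 samples lay above both AAV-GFP samples for 9 of the 10 genes, against 18.2% of all genes, and below them for 1, against 41.2%. The median log2 difference was 0.49 over the 10 genes and -0.10 over all genes. Centring each sample on its median brought the all-gene median to 0.01 and turned the split of calls over all genes from 250 higher and 460 lower to 410 higher and 230 lower. The 3 calls rest on few samples. Without AAV-GFP replicate 1 or 2 the test called 0 members and without AAV-Shisa3 replicate 1 or 2 it called 1, Gclm, while the log2 difference of Gclm stayed between 1.32 and 1.45. Each of these fits leaves a group with 1 sample, which is assumed to vary like the other group, and over all genes the calls dropped to 0 higher and 0 lower without either AAV-GFP sample, so that they say little about these members in particular. An exact permutation test of 2 against 2 samples cannot go below p = 0.333. Without the intensity trend, and with all genes above 0 kept, the counts were also 0.

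Markers of other cells moved between the groups as well. The summed neutrophil markers went from 593 and 565 TPM with AAV-GFP to 1092 and 683 TPM with AAV-Shisa3, with both AAV-Shisa3 samples higher for 8 of the 10 markers. Camp and Ngp were called higher (limma, adjusted p = 0.0422 and 0.0378), while the defining marker Ly6g was between 0.10 and 0.29 TPM. Proliferation markers summed to 335 and 297 TPM with AAV-GFP and to 431 and 357 TPM with AAV-Shisa3. Most of that sum was Pcna, at 273 and 237 TPM with AAV-GFP and at 331 and 299 TPM with AAV-Shisa3. Both AAV-Shisa3 samples were higher for 3 of the 7 proliferation markers and lower for 0. Their median log2 difference of 0.28 became -0.06 without AAV-Shisa3 replicate 1. Fibroblast markers stayed between 10.3 and 17.5 TPM and dendritic cell markers between 3.43 and 4.88 TPM, with Cd209a at 0 in the 4 samples. Their part in the values of the antioxidant genes was not tested. In such bulk samples, fewer cells of a type and less RNA per cell cannot be told apart.

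Beyond the 10 members, 83 of 96 other genes of the pathway passed the filter in the AAV experiment, and 2 were called higher and 3 lower, near the 2.23% and 4.1% of all genes, with a median log2 difference of 0.01. Pgd, the NADPH-making 6-phosphogluconate dehydrogenase of the pentose phosphate pathway, was at 497 and 491 TPM with AAV-GFP and at 671 and 704 TPM with AAV-Shisa3 (log2 difference 0.48; limma, adjusted p = 0.0242). Me1, cytosolic malic enzyme, was at 11.4 and 11.9 TPM with AAV-GFP and at 18.0 and 17.9 TPM with AAV-Shisa3 (log2 difference 0.58; limma, adjusted p = 0.0350). The 29 other NRF2 targets tested held 2 higher genes and 1 lower gene, the carbonyl reductase Cbr1, which fell from 31.5 and 24.9 TPM to 15.4 and 17.1 TPM (log2 difference -0.75; limma, adjusted p = 0.0397).

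The other lists held few calls. Of 17 partners and regulators of NRF2, 0 were called higher and 1 lower, the related factor Nfe2l1, which went from 177 and 180 TPM to 132 and 119 TPM (log2 difference -0.51; limma, adjusted p = 0.0307). The median of this list was -0.20, and both AAV-Shisa3 samples were below both AAV-GFP samples for 10 of the 17 genes and above for 2, against 41.2% and 18.2% of all genes. For the 29 other NRF2 targets these counts were 7 below and 11 above, with a median of 0.11 and 7 genes higher and 3 lower before adjustment (all genes 8.21% and 19.8%). Of 16 superoxide, peroxide and thioredoxin enzymes, 0 were called higher and 1 lower, the stress-induced sestrin Sesn1, from 37.8 and 36.9 TPM to 23.6 and 26 TPM (log2 difference -0.57; limma, adjusted p = 0.0319). By limma, the 13 glutathione and cystine genes tested held 0 calls (3 higher and 1 lower before adjustment, at p under 0.05; median log2 difference 0.04). The 3 higher genes were Gpx3 (log2 difference 0.65), Gsr (0.28) and Gpx4 (0.23), and the lower one was Chac1 (-0.69). They missed the threshold after adjustment (limma, adjusted p = 0.0867, 0.116, 0.169 and 0.0937). The groups were separate for 6 genes raised with AAV-Shisa3 and for 4 lowered, against 18.2% and 41.2% of all genes. Gss, which completes glutathione synthesis, overlapped between the groups (log2 difference 0.07). Slc3a2, the partner subunit of Slc7a11, differed by 0.05. Gss and Slc3a2 did not pass (limma, adjusted p = 0.719 and 0.654). The genes named from this list were picked after their values were seen. The 8 NADPH oxidase subunits, which make superoxide, also held 0 calls (1 higher and 0 lower unadjusted, median log2 difference 0.04). Of these 5 calls, the 3 lower ones missed the threshold after centring on sample medians, and all 5 missed it without the trend and whenever 1 sample was left out.

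**Figure D2:**
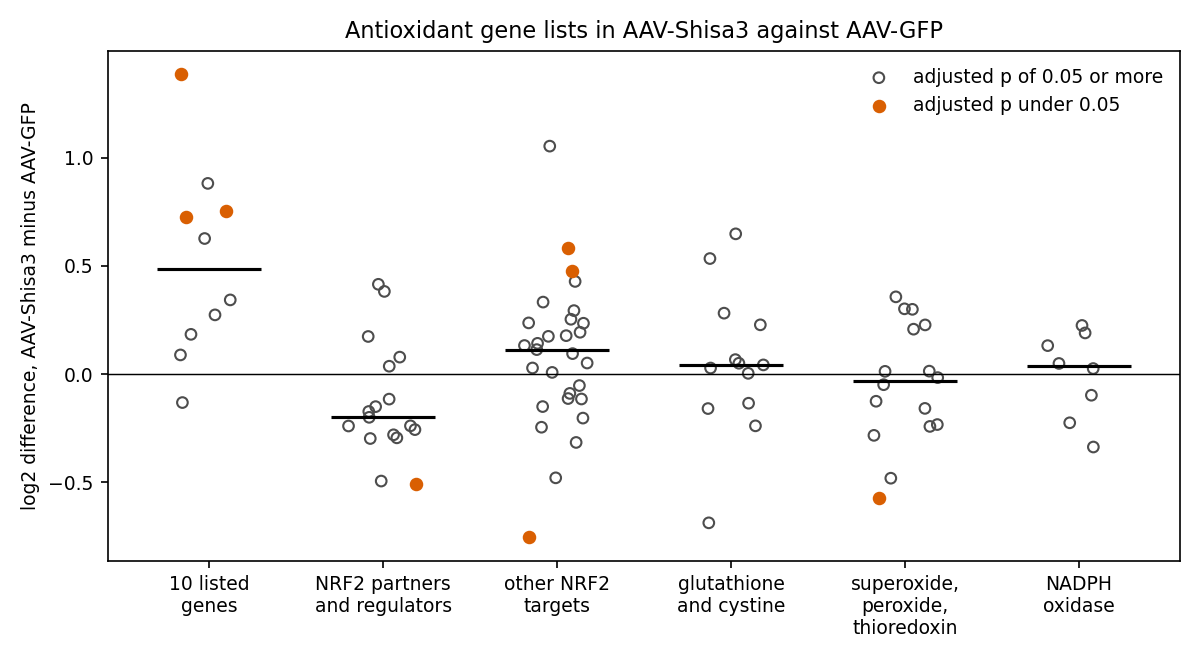
Log2 difference in TPM + 1, AAV-Shisa3 minus AAV-GFP, for each tested gene of the 10 listed genes and of 5 other lists of the pathway. Filled orange points passed the test (limma, adjusted p under 0.05), open points did not, and black lines are list medians, 0.49 for the 10 genes and from -0.20 to 0.11 for the other lists.

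With LPS the same genes followed different courses. Slc7a11, Sod2 and Txnrd1 were much higher at 2 h and at 4 h than at 0 h, whereas both glutathione synthesis genes and Nqo1 were lower at 4 h. The values are normalised read counts, that is read counts divided by a factor for each library, and each time point had 1 library, so there was no replicate check and no test. The intervals given are 95% intervals of the ratio from exact binomial (Clopper-Pearson) limits and cover counting error only. These values are not divided by gene length, so that no order of levels between genes was read from them.

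Slc7a11 had 58.5, 3149 and 3245 (91, 1442 and 5971 reads) at 0, 2 and 4 h. It was 53.8-fold higher at 2 h (95% interval 43.5 to 67.2) and 55.4-fold higher at 4 h (45.1 to 69.0), and these intervals overlapped. Gclm and Gclc, which use the cysteine that such import supplies, were not higher. Gclm went from 727 (1130 reads) to 539 (247 reads) and 389 (715 reads), a ratio to 0 h of 0.742 (0.644 to 0.852) at 2 h and of 0.535 (0.486 to 0.588) at 4 h. Gclc went from 305 (474 reads) to 262 (120 reads) and 161 (296 reads). Its ratio was 0.859 (0.697 to 1.05) at 2 h, an interval that includes 1, and 0.528 (0.455 to 0.611) at 4 h. The 2 h log2 difference of -0.22 became 0.10 when libraries were centred on their medians and -0.88 with reads scaled to equal library totals. On the deposited scale, neither subunit reached a 2-fold decrease.

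Sod2 had 798, 15124 and 28337 (1241, 6926 and 52146 reads) at 0, 2 and 4 h. It was 18.9-fold higher at 2 h (17.8 to 20.1) and 35.5-fold higher at 4 h (33.6 to 37.6), with no overlap of these intervals. Txnrd1 and Srxn1, the thioredoxin-linked pair, were highest in the 2 h library. Txnrd1 had 1283, 11665 and 7578 (1995, 5342 and 13946 reads) at 0, 2 and 4 h, 9.09-fold higher at 2 h (8.63 to 9.57) and 5.91-fold at 4 h (5.63 to 6.19). Srxn1 had 702, 2400 and 1175 (1092, 1099 and 2162 reads), 3.42-fold higher at 2 h (3.14 to 3.72) and 1.67-fold at 4 h (1.55 to 1.80).

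Nfe2l2 had 3083, 6413 and 7064 (4793, 2937 and 13000 reads). It was 2.08-fold higher at 2 h (1.99 to 2.18) and 2.29-fold at 4 h (2.22 to 2.37). Its repressor Keap1 had 793, 1317 and 2342 (1233, 603 and 4310 reads) and was higher by 1.66-fold at 2 h (1.5 to 1.83) and 2.95-fold at 4 h (2.77 to 3.15). From 2 h to 4 h the log2 difference was 0.83 for Keap1 and 0.14 for Nfe2l2, and the latter was -0.02 with reads scaled to equal library totals. Hmox1 had 2661, 2356 and 4958 (4137, 1079 and 9124 reads), with ratios of 0.885 (0.827 to 0.947) at 2 h and 1.86 (1.80 to 1.93) at 4 h. At 2 h its log2 difference of -0.18 became 0.14 when libraries were centred on their medians and -0.84 with equal library totals. Nqo1 had 125, 78.6 and 85.9 (195, 36 and 158 reads), with ratios of 0.627 (0.426 to 0.898) and 0.684 (0.551 to 0.849), and its 36 reads at 2 h made it the least precise of the members at that time.

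**Figure D3:**
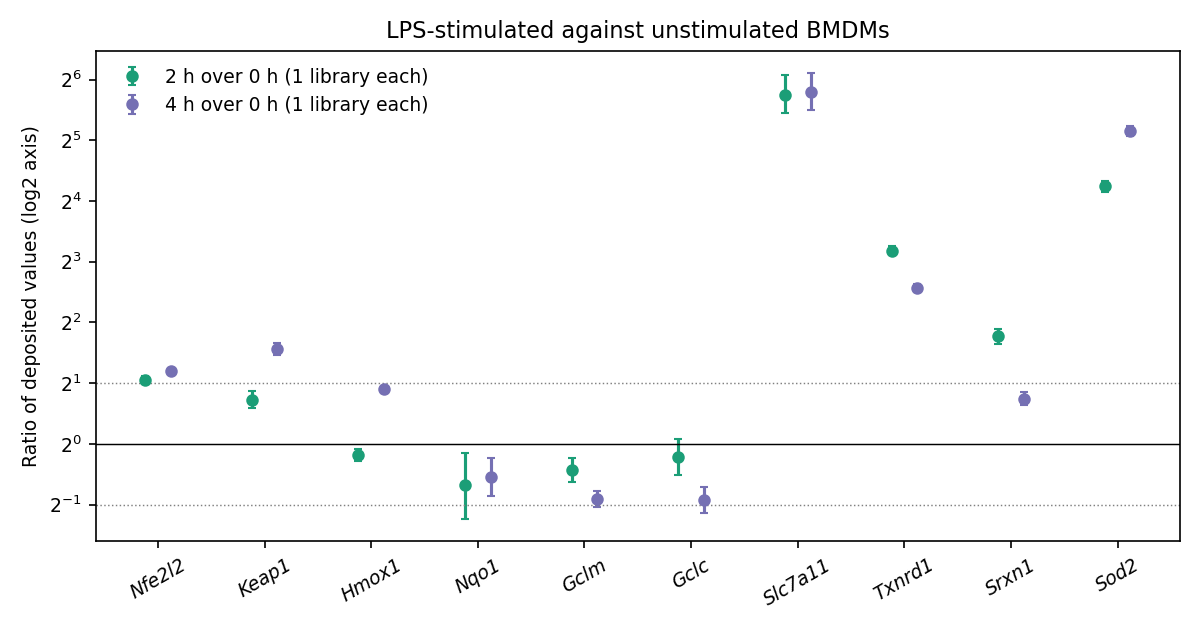
Ratio of the deposited value at 2 h (green) and 4 h (violet) of LPS to that at 0 h for the 10 genes (log2 axis), 1 library per time point. Bars are 95% counting intervals and dotted lines mark 2-fold, and Slc7a11 (55.4-fold at 4 h) and Sod2 (35.5-fold) stand above the rest while Gclm (0.535) and Gclc (0.528) lie just above the lower line.

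Counting a 2-fold difference on the log2(value + 1) scale, 5 of 10 members were higher and 0 lower at 2 h, against 20.5% of 17854 genes higher and 24.7% lower. These 5 were Nfe2l2, Slc7a11, Txnrd1, Srxn1 and Sod2. At 4 h the counts were again 5 and 0, with Keap1 in place of Srxn1, against 22.2% and 23.6% of all genes. From 2 h to 4 h, Hmox1 was past 2-fold higher and Srxn1 past 2-fold lower, against 17.9% and 15.2%. The median log2 differences of the members were 0.89 at 2 h and 1.05 at 4 h, beside -0.05 and -0.04 over all genes.

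How the libraries were put on a common scale decided several of these calls. Scaling the recovered reads to equal library totals moved the all-gene median by -0.63 at 2 h and by -0.76 at 4 h, and the split over all genes at 4 h from 3958 higher and 4207 lower to 2206 higher and 7597 lower. With that scaling the log2 difference at 4 h was 0.37 for Nfe2l2, 0.74 for Keap1, 0.07 for Hmox1 and -0.08 for Srxn1, which are no longer past 2-fold for the former pair and reverse in sign for Srxn1. Slc7a11 (4.95), Sod2 (4.32) and Txnrd1 (1.74) stayed past 2-fold, and Nqo1 (-1.35), Gclm (-1.72) and Gclc (-1.74) became past 2-fold lower. At 2 h Nfe2l2 was also under 2-fold with edgeR's TMM factors (log2 difference 0.99). With equal library totals the 2 h log2 difference was 0.395 for Nfe2l2 and 0.07 for Keap1. Centred on library medians, 7 members were past 2-fold higher and 0 lower at 4 h, with Hmox1 (1.27) and Srxn1 (1.11) added. With TMM factors 5 were higher and 0 lower at 4 h, as with the deposited values. Which scale fits these cells best was not tested. Differences between members at 1 time point keep their order under each scaling, since a scaling moves all genes of a library alike.

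**Figure D4:**
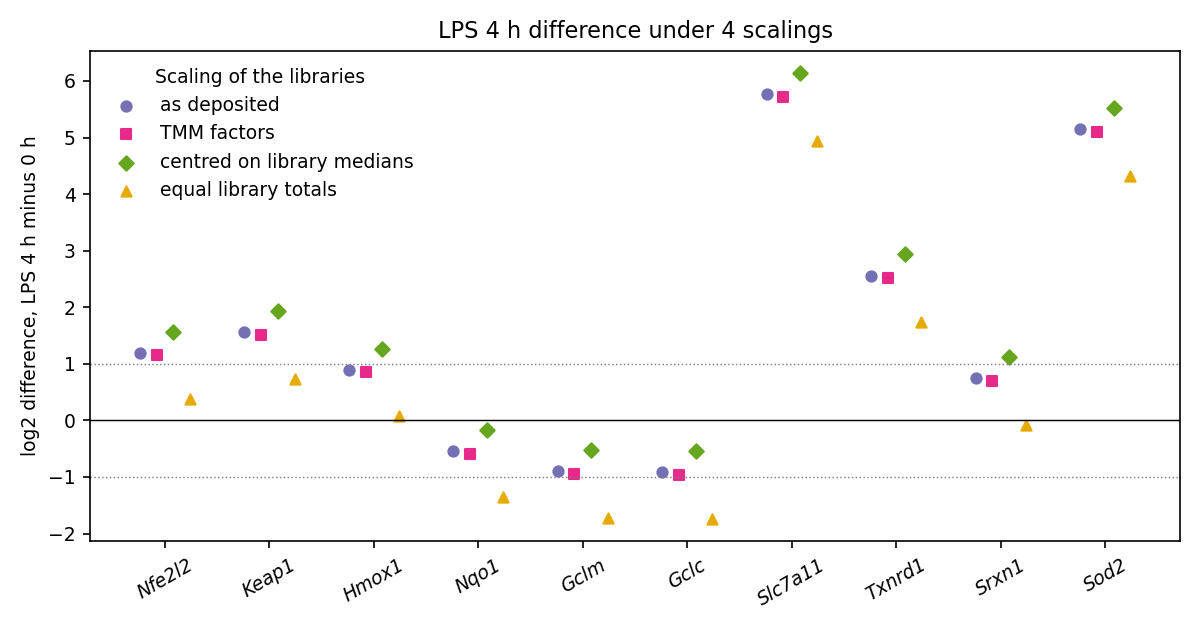
Log2 difference between 4 h of LPS and 0 h for each of the 10 genes with the values as deposited, with TMM factors, centred on library medians and with reads scaled to equal library totals. Dotted lines mark 2-fold. Slc7a11, Txnrd1 and Sod2 lie above the upper line under the 4 scalings, and Srxn1 crosses 0 under equal totals (-0.08).

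Of the 96 other genes of the pathway, 87 passed the filter in the LPS experiment, with 16 higher and 9 lower past 2-fold at 2 h (against 20.5% and 24.7% of all genes) and 19 higher and 12 lower at 4 h (against 22.2% and 23.6%). Their median log2 difference at 4 h was 0.13. With reads scaled to equal totals the counts at 4 h were 11 higher and 31 lower, and the median was below 0 in each of the 5 lists. Centred on library medians, they were 27 higher and 7 lower, and the median was above 0 in each of the 5 lists. The directions given for the lists thus hold for the deposited scale. The genes named from each list are those with the largest differences at 4 h.

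Among 17 partners and regulators, 4 were higher and 2 lower at 4 h, with a median log2 difference of 0.62 (equal totals, 3 higher and 4 lower, median -0.20; centred, 8 and 2). Maff, a small MAF protein and partner of NRF2, had 16.7 at 0 h, 500 at 2 h and 102 at 4 h (26, 229 and 188 reads). Syvn1, an ubiquitin ligase of the endoplasmic reticulum, went from 329 to 756 and 1225. The nuclear receptor Rxra went from 1434 to 548 and 115, and Palb2, a DNA repair protein, had 154, 6.55 and 31.5, with only 3 reads at 2 h. The 3 genes of the lists whose pair of LPS differences lay nearest to that of Nfe2l2, by Euclidean distance over 2 log2 differences among 96 genes, were Chac1 (0.231), Abcc4 (0.302) and Ncf4 (0.409). Chac1 had only 4, 3 and 11 reads, and the interval of its 2 h ratio ran from 0.373 to 15.05, so its place is within counting error.

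The 29 other NRF2 targets held 5 genes higher and 4 lower at 4 h, with a median log2 difference of -0.07. The counts were 2 and 11 with equal totals (median -0.89) and 6 and 1 when centred on library medians (median 0.30). Marco, a scavenger receptor, went from 20.6 (32 reads) to 262 and 1078, and Txn1, thioredoxin, the substrate of Txnrd1, from 1288 to 3749 and 6220. Cbr3, a carbonyl reductase, had 124, 114 and 25.0. Abcc4, an efflux transporter, had 347, 629 and 931, a log2 difference at 4 h of 1.42 that was 0.60 with equal totals.

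The 16 glutathione and cystine genes held 5 higher and 1 lower at 4 h, with a median log2 difference of 0.23 (equal totals, 3 and 7, median -0.53). Gsr, glutathione reductase, had 701, 2500 and 5727 and was 8.18-fold higher at 4 h (7.68 to 8.71), opposite in direction to Gclm and Gclc. Glrx, glutaredoxin, had 260, 496 and 1030. Cth, which makes cysteine from cystathionine, had 0 reads at 0 h, 1 at 2 h and 13 at 4 h, at least 3.66-fold higher at 4 h against a floor of 3 reads, with a lower 95% counting limit of 2.57. Ggt5, a gamma-glutamyltransferase, had 67.5, 65.5 and 19.0.

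Among 17 superoxide, peroxide and thioredoxin enzymes, 2 were higher and 5 lower at 4 h, with a median log2 difference of -0.15. The counts were 1 and 8 with equal totals (median -0.97) and 2 and 3 when centred on library medians (median 0.22). Prdx5, a peroxiredoxin, had 1454, 8047 and 14300, 9.84-fold higher at 4 h (9.42 to 10.3). Txnip, which binds and inhibits thioredoxin, went from 13000 to 2223 and 1661. Sesn1 had 3404 at 0 h and 53.3 at 4 h, and Sesn2 had 333 and 103. The 8 NADPH oxidase subunits held 3 higher and 0 lower at 4 h, with a median log2 difference of 0.66 (equal totals, 2 and 1, median -0.16). Cybb, the catalytic subunit of the phagocyte oxidase, had 12183, 25728 and 48876. Rac2, the GTPase of that oxidase, had 2320, 5330 and 7017, a log2 difference of 1.60 that was 0.77 with equal totals. Nox1 had 0 reads at 0 h, 29 at 2 h and 373 at 4 h, at least 105-fold higher at 4 h against a floor of 3 reads, with a lower 95% counting limit of 85.0.

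The marker sums of the LPS libraries depended on the scale. As deposited values, macrophage markers summed to 331490, 370822 and 337377 at 0, 2 and 4 h, with 3 of 10 past 2-fold higher and 0 lower at 4 h and a median log2 difference of 0.27. Scaled to equal library totals (CPM), the sums were 33058, 23380 and 19010, and the median log2 difference was -0.56. Neutrophil markers summed to 4761, 9988 and 7054 as deposited, and to 475, 630 and 397 CPM. Gene by gene, 5 of the 10 neutrophil markers were past 2-fold higher and 1 lower at 2 h (median log2 difference 0.85, beside 20.5% and 24.7% of all genes), and 0 higher and 2 lower at 4 h (median -0.45, beside 22.2% and 23.6%). At equal library totals these became 1 higher and 1 lower at 2 h (median 0.19) and 0 higher and 5 lower at 4 h (median -1.04), and the macrophage markers at 4 h became 3 higher and 3 lower. Centred on library medians, the neutrophil markers were 5 higher and 0 lower at 2 h (median 1.17). At 4 h they were 4 higher and 1 lower (median -0.07), and the macrophage markers 4 higher and 0 lower. Fibroblast markers summed to 479, 924 and 1057 (47.7, 58.2 and 59.6 CPM), dendritic cell markers to 142, 312 and 449.9 (14.1, 19.7 and 25.4 CPM), and proliferation markers to 11541, 15408 and 10452 (1151, 971 and 589 CPM). Their part in the differences was not tested.

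The AAV and LPS experiments share no samples, were normalised separately and were set side by side by direction only. Of the 9 members with both AAV-Shisa3 samples above the AAV-GFP samples, Nfe2l2, Keap1, Slc7a11, Txnrd1 and Srxn1 had higher deposited values at 2 h of LPS than at 0 h, and Hmox1, Nqo1, Gclm and Gclc had lower ones. At 4 h Hmox1 was higher than at 0 h (ratio 1.86), while Nqo1, Gclm and Gclc were lower. When libraries were centred on their medians, the 2 h log2 differences of Hmox1 and Gclc turned to 0.14 and 0.10. Among the 9 members, the AAV difference passed the test for Gclm, Txnrd1 and Srxn1. Sod2, with its large LPS differences, did not pass in the AAV experiment. The difference between the experiments was not tested.

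In GENCODE M21 (GRCm38), to which all 10 identifiers matched without their version, Gclm (ENSMUSG00000028124) lies on chromosome 3 at 122245557 to 122270732 on the plus strand, Txnrd1 (ENSMUSG00000020250) on chromosome 10 at 82833951 to 82897712 on the plus strand, and Srxn1 (ENSMUSG00000032802) on chromosome 2 at 152105516 to 152111376 on the plus strand. Slc7a11 (ENSMUSG00000027737) lies on chromosome 3 at 49892526 to 50443614 on the minus strand and Nfe2l2 (ENSMUSG00000015839) on chromosome 2 at 75675513 to 75704641 on the minus strand. Keap1 overlaps the antisense gene Gm16754 over 510 of its 4693 exonic bases, and Gclm overlaps Gm17494 on the opposite strand and the pseudogene Gm6061 on its own strand, over at most 296 of 6291 bases. Whether reads were counted by strand is not given in the sources used here, so shared reads cannot be told apart. In the AAV samples Gm17494 was at 1.54 to 2.22 TPM and Gm6061 at 0, against 142 to 398 TPM for Gclm, and Gm16754 was at 1.41 to 2.24 TPM, against 63.2 to 78.2 TPM for Keap1. In the LPS libraries, as counts not divided by length, Gm6061 had 19.9, 34.9 and 24.5 at 0, 2 and 4 h, Gm16754 had 0, 0 and 5.98, and Gm17494 was at 0 in each.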

How the data were processed

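RNA-seq tables of 7 BMDM samples were used, 3 in the LPS experiment and 4 in the AAV experiment. The libraries were prepared with a VAHTS Universal V6 kit and read as paired ends on a NovaSeq instrument. The labels list the genome build mm9; the aligner, annotation and counting tool are not given in the sources used here. The deposited tables hold no coordinates.

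The LPS values are a signal as deposited by the authors: counts of reads per gene over a scaling factor that differs between libraries. Whole reads were recovered for 100% of the values (tolerance 0.01), summing to 15588502, 7263258 and 32659392 at 0, 2 and 4 h. Differences were taken on log2(value + 1) for the 17854 genes whose mean reached 1, without a test, since 1 library per time point gives no spread between replicates. Ratio intervals (95%, Clopper-Pearson) cover counting error only, and 3 reads were the floor.

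For the AAV experiment the deposited values were read as TPM, a unit inferred from the values, which sum to between 999778 and 999818. The depth of these samples is unknown. limma 3.58.1 (R 4.3.3), with an intensity trend, was fitted to log2(TPM + 1) for the 11218 genes whose mean reached 1 TPM, which understates the change of low genes. P-values were adjusted by Benjamini-Hochberg over these genes with a threshold of 0.05, two-sided. Correlations of log2(TPM + 1) were 0.989 and 0.986 within AAV-GFP and AAV-Shisa3 and at most 0.982 between groups, over genes, which are not replicates.

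The members and the lists of other pathway genes and markers were chosen with earlier results of these data known. From each other list, the text names up to 4 genes past the threshold, by size of the log2 difference. In the AAV experiment, glutathione and cystine genes that missed the adjusted threshold are also named. The pathway lists held 19 partners and regulators, 32 other targets, 19 glutathione and cystine genes, 17 superoxide, peroxide and thioredoxin enzymes and 9 NADPH oxidase subunits. Promoter motifs were searched in RefSeq windows and gene positions came from GENCODE M21, matched by identifier. TMM factors came from edgeR 4.0.16, applied to the recovered reads. Alternatives were other pseudocounts, filters and scalings, no trend, a replicate block and leaving out each AAV sample. Keeping genes above 0 in any sample was added after seeing the data.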

Additional observations from a re-analysis of the deposited data

How the results depend on the processing

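No member of the list changed sign in the AAV experiment under the alternatives run, and the calls of Gclm, Srxn1 and Txnrd1 were lost without the trend, with all genes above 0 kept and without either AAV-GFP sample; without either AAV-Shisa3 sample Gclm alone was called. The number of members called higher (3 as reported) was 0 without the trend, 5 when samples were centred, 6 with no filter, 5 with at least 1 TPM in every sample, 0 with genes above 0 in any sample, and 0 to 1 when 1 sample was left out; members called lower (0) were 1, Sod2, with no filter. The members gained were Gclc and Slc7a11 in each of the fits with 5 or 6, block included, and Hmox1 with no filter and with the block. Other pathway genes called higher (2) and lower (3) were 0 and 0 without the trend, 4 and 0 centred, 11 and 13 with no filter, 0 and 0 with genes above 0 in any sample, and 0 to 0 when 1 sample was left out. All genes called higher (250) and lower (460) were 1 and 4 without the trend, 410 and 230 centred, 950 and 1605 with no filter, 0 and 0 with genes above 0 in any sample, and 0 to 27 and 0 to 7 when 1 sample was left out. With no filter most residual variances are 0 and that fit is not reliable. At an unadjusted p under 0.05, the members called higher were 6 without the trend (all genes 7.23%), 6 with genes above 0 in any sample (5.51%) and 5 to 7 without 1 sample (5.49% to 7.11%), and 1, Sod2, was called lower without AAV-Shisa3 replicate 2 (14.3%). The cause was not tested.

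With a replicate block the members called higher were 6, other pathway genes 5 higher and 5 lower, and all genes 424 higher and 851 lower. The samples share only a number: the difference between replicates 1 and 2 correlated at 0.188 between the groups over 11218 genes, from a single pair of differences.

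For LPS, with reads scaled to equal library totals, 2 members were lower at 2 h (0 as reported), 3 higher (5) and 3 lower (0) at 4 h, and 0 higher (1) from 2 h to 4 h. Other pathway genes were 9 higher (16) and 14 lower (9) at 2 h and 11 higher (19) and 31 lower (12) at 4 h. All genes were 2427 higher (3668) and 7068 lower (4406) at 2 h and 2206 higher (3958) and 7597 lower (4207) at 4 h. Centred on library medians, 0 members (1) were lower from 2 h to 4 h and 7 other pathway genes (12) lower at 4 h. From 2 h to 4 h, all genes were 1830 higher (3197) and 1551 lower (2710) with a pseudocount of 5, and 2110 higher with a mean of at least 5. Slc7a11, Sod2 and Txnrd1 stayed past 2-fold at 2 h and 4 h, and Gclm, Gclc and Nqo1 stayed below 0 at 4 h, in all settings run. Among members, depth limits Nqo1 most, with 36 reads in the 2 h library, and the depth of the AAV samples is unknown.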
